A study of Mus musculus with 12 samples.

Results

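The 374 gene areas described here are those of mouse genes named Zfp followed by a number, out of 37544 gene areas with a signal value in the deposited table. They were chosen by symbol. Of these, 201 had another Zfp gene area within 100 kb on the same chromosome and are called clustered, and 173 had none and are called single. The libraries were DNA immunoprecipitations: sonicated, denatured genomic DNA was pulled down with an antibody and sequenced. Antibodies against 5-methylcytosine (5mC) and against 5-hydroxymethylcytosine (5hmC, made from 5mC by Tet enzymes) were each used on naive T cells and on Th1, Th2, iTreg and Th17 cells, with 1 library for each pairing. Control IgG and antibody-free input DNA libraries came from Th17 cells only. The design text names mice with a CD2(Cre) transgene and floxed Tet2, and their wild-type littermates, on a mixed background, and the labels do not tie any library to a genotype, an age or a number of animals. CD2 regulatory elements drive Cre in lymphocytes, so such mice would lack Tet2 in T and B cells alike.

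Most Zfp genes encode C2H2 zinc finger proteins, in which each finger is folded around a zinc ion and contacts a few bases of DNA. A large share also carry a KRAB domain, which recruits Trim28 and, through it, the histone methyltransferase Setdb1, HP1 proteins and DNA methyltransferases to silence chromatin, above all at retroelements. KRAB zinc finger genes multiplied by local duplication and lie in arrays of related copies, while other Zfp genes are old, solitary and broadly expressed. The symbol also covers proteins of other kinds, such as the CCCH fingers of the Zfp36 family, which bind messenger RNA.

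The promoters of 6 members show how far the genes differ in CpG, the dinucleotide whose cytosine is methylated and hydroxymethylated. Capitals mark each CG. Sequences are RefSeq's on GRCm38.p6, 250 bases before to 50 after the gene start, 5′ to 3′ on the gene's strand, and 303 of the 374 members had such a sequence. Zfp408 and Zfp513 had the largest drop in 5hmC signal from naive to differentiated cells among members of at least 3000 bp, Zfp937 and Zfp735 the largest gain, and Zfp36l1 and Zfp879 the highest mean 5hmC signal.
Zfp408 promoter (chr2:91649742-91650041, minus strand): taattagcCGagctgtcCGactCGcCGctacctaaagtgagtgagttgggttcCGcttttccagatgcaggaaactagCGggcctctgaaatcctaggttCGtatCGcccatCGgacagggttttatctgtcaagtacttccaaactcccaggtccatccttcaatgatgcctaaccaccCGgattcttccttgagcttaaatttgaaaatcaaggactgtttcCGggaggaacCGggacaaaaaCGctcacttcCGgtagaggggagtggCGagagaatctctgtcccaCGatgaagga
Zfp513 promoter (chr5:31202254-31202553, minus strand): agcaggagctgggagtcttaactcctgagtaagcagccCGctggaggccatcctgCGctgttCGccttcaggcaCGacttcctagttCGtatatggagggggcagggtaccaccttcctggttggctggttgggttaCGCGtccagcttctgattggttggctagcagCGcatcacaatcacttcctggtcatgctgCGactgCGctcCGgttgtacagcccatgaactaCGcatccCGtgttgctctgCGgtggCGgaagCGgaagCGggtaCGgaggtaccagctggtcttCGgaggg
Zfp937 promoter (chr2:150217849-150218148, plus strand): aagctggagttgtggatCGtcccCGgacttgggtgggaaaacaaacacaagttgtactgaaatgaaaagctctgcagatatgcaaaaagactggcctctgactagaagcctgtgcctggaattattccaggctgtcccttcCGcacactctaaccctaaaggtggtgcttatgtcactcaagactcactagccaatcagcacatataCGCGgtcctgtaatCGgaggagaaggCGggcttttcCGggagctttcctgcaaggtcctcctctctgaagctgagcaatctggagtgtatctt
Zfp735 promoter (chr11:73688528-73688827, plus strand): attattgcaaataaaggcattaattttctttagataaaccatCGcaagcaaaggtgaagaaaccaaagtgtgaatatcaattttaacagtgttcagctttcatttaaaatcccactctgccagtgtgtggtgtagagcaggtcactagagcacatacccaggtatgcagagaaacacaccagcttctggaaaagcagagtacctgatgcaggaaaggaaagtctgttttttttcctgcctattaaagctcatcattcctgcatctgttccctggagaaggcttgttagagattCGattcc
Zfp36l1 promoter (chr12:80112964-80113263, minus strand): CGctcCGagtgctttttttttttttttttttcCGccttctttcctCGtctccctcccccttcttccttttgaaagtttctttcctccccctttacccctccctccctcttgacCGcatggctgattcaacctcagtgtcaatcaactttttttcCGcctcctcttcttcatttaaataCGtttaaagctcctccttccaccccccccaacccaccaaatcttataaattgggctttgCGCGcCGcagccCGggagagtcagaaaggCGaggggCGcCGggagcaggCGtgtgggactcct
Zfp879 promoter (chr11:50841503-50841802, minus strand): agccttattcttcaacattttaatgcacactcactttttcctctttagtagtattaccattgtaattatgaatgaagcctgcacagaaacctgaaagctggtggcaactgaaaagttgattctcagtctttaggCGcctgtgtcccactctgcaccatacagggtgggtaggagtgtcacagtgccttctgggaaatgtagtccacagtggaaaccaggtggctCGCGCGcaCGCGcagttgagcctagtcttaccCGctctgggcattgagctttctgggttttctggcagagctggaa
The pair with the largest drop held 16 and 19 CG, and the pair with the largest gain 8 and 2. These are the ends of a ranking: over the 303 members with a sequence, Spearman's rho between the change from naive and CG was -0.165. Zfp36l1 held 15 and Zfp879 held 7. Of the 27025 promoters in the table, 33.5% had as many CG as Zfp408 or more, 28.4% as many as Zfp513, 49.0% as many as Zfp937, 85.4% as many as Zfp735, 35.2% as many as Zfp36l1 and 52.3% as many as Zfp879.

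Some properties of the libraries bear on all values that follow. Signal is an average per gene area, rounded to 0.1, and the read number behind each library is not given in the sources used here, so no counting error could be attached. Each group held 1 library, so cell types could not be compared by a test and no replicate bears on the differences between them. A difference is therefore described by its size, as log2(signal + 0.2), which understates the change of low gene areas, and gene areas are counted where it is at least 1, which is 2-fold. Counts use the 28159 gene areas with a mean over the 10 5mC and 5hmC libraries of at least 3.31, among them 340 of the 374 members. The labels iTreg and Th17 on the 5hmC libraries are in doubt: signal at Il17a, the defining cytokine of Th17 cells, was 31.3 in the iTreg-labelled library against 8.8 in the Th17-labelled one, and at Il17f it was 32.8 and 5.3. At Foxp3, which defines regulatory T cells, it was 25.3 and 30.9. The naive markers Lef1, Tcf7, Ccr7 and Satb1 were highest in the naive 5hmC library, Ifng and Tbx21 in Th1, and Il4, Il5 and Il13 in Th2. Of 7 markers of other cells, Cd8a and Cd8b1 were also highest in naive cells (78.0 and 80.2, against at most 26.3 and 53.3 elsewhere), and all 7 had a signal above 0 in each 5hmC library (lowest 3.0, at Lyz2 in Th1). Their part in the results was not tested.

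Zfp gene areas carried most 5hmC in naive T cells. Their median 5hmC signal was 16.35 in naive cells, 12.7 in Th1, 12.85 in Th2, 12.7 in the iTreg-labelled library and 11.1 in the Th17-labelled one. Over all gene areas these medians were 12.0, 10.9, 11.0, 11.0 and 9.9. Zfp gene areas were also longer, with a median of 15.06 kb against 6.26 kb, and gene areas of at least 3000 bp had a naive median of 16.2. Within the members, Spearman's rho with length was -0.013 for mean 5hmC and 0.174 for the mean log2 difference of the 4 differentiated libraries from naive. Both are descriptions over 374 gene areas of the same 5 libraries. Only 11 members were under 3000 bp, so these values do not bear on the shorter gene areas of the whole table. The part of length in the level was not tested. Averaged over the 4 differentiated libraries, 289 of 374 members lay below naive, or 77.3%. It was 59.1% of all gene areas and 63.6% of those of at least 3000 bp. The median log2 difference from naive was -0.38 for members, -0.17 for all gene areas and -0.24 for gene areas of at least 3000 bp. Among those with a promoter sequence of 0 to 9 CG it was -0.345 for members and -0.002 for all gene areas. With 10 to 19 CG it was -0.359 and -0.392, and with 20 or more -0.542 and -0.529, so members differed from all gene areas mainly in the lowest class. The part of promoter CG was not tested. Dividing each 5hmC library by its median ratio to the others moved the differences from naive up by 0.15 to 0.30, which set the median of all gene areas to 0 and that of the members to -0.18, with 243 members below naive.

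Counted by size, Zfp gene areas stood close to the background. In Th1, 50 of 340 members were at least 2-fold below naive, or 14.7%, against 16.1% of all gene areas. In Th2 it was 40 members, or 11.8%, against 14.8%. The iTreg-labelled library had 46, or 13.5%, against 14.8%, and the Th17-labelled one 89, or 26.2%, against 25.7%. Scaling by median ratios lowered these counts to 28 (8.24%, all gene areas 10.7%), 27 (7.94%, 10.6%), 27 (7.94%, 10.2%) and 50 (14.7%, 16.9%) in the same order. Gene areas at least 2-fold above naive were rarer among members than in the whole table in these libraries, under either scaling: 8 members in Th1 against a background of 4.38%, 7 in Th2 against 4.90%, 4 in the iTreg-labelled library against 4.56% and 2 in the Th17-labelled one against 4.66%. After scaling there were 15 members (4.41%, all gene areas 6.48%), 13 (3.82%, 6.86%), 6 (1.76%, 6.62%) and 11 (3.24%, 9.39%). These 4 comparisons share 1 naive library. For the mean of the 4 differentiated libraries, 46 members (13.5%, background 16.0%) were at least 2-fold lower and 2 (0.588%, background 2.94%) at least 2-fold higher, and after scaling 28 (8.24%, all gene areas 10.1%) and 5 (1.47%, all gene areas 5.28%). The naive library held the highest of the 5 values in 193 members, or 56.8%, against 44.9% of all gene areas, and the lowest in 41, or 12.1%, against 18.4%. The Th17-labelled library held the lowest value in 142 of 340 members, and also in 10213 of all 28159 gene areas that passed. Members below naive were thus more frequent than in the whole table, while the share past 2-fold in the mean of 4 did not exceed the background.

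Of the 6 members that lay farthest below naive, 5 were single. Zfp408, a gene of retinal blood vessel development (mm9 chromosome 2, 91483844 to 91489947), stood at 105.0 in naive cells, 37.0 in Th1, 17.2 in Th2, 32.2 in the iTreg-labelled and 16.2 in the Th17-labelled library, a log2 difference of -2.12. Zfp513, also linked to the retina (chromosome 5, 31501353 to 31504675), had 68.9 against 19.8, 13.2, 29.5 and 14.8 in the same order, or -1.89. In both, all 4 differentiated values lay below naive, while the 5mC signal of Zfp408 was 0.9 in naive cells against 0.9 to 1.6 elsewhere. The IgG signal was 1.3 at Zfp408 and 5.1 at Zfp513, where the median of the members was 1.0. Zfp191, listed as Zfp24 in the reference table, had 14.8 against 2.6, 4.3, 7.3 and 3.3 (-1.81). Zfp281, a repressor that acts at stem cell genes, had 39.3 against 18.4, 13.7, 13.6 and 6.7 (-1.66). Zfp706 and Zfp740 followed with -1.51 and -1.50. In all 6 of these members, every differentiated library lay below naive.

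The gains were fewer and smaller. Zfp937, in a pair with Zfp120 on chromosome 2 (150043834 to 150070609), had 11.2 in naive cells and 27.8, 30.4, 23.1 and 35.9 in the Th1, Th2, iTreg-labelled and Th17-labelled libraries (log2 difference 1.35). Its neighbour Zfp120 had 14.9 against 7.8, 12.7, 14.3 and 7.9, the other direction, although the genes are 81.4 kb apart. Zfp735, a single member on chromosome 11 (73502279 to 73527309), had 3.7 against 9.0, 8.2, 9.6 and 8.0 (1.19). These were the 2 members that passed the filter and 2-fold in the mean of 4 as deposited. Zfp366, known from dendritic cells (chromosome 13, 99954777 to 100016986), came next with 39.7 against 76.9, 77.4, 76.2 and 61.5 (0.87), followed by Zfp820 (0.86), Zfp612 (0.84) and Zfp105 (0.77). Scaling by median ratios took Zfp366 (1.07), Zfp820 (1.06) and Zfp612 (1.03) past 2-fold as well. In these 6 members that passed the filter every differentiated library lay above naive. Zfp932, which did not pass the filter, had 2.9 against 6.3, 6.8, 5.9 and 7.0 (1.11). Zfp334 was at least 2-fold above naive in Th1 and Th2 alone: its signal was 13.8 in naive cells, 27.8 in Th1, 35.7 in Th2, 14.6 in the iTreg-labelled library and 13.1 in the Th17-labelled one. Zfp518b showed the other split, with 4.5 in naive cells and 4.6 in Th1, against 8.8, 9.7 and 8.6 in the Th2, iTreg-labelled and Th17-labelled libraries.

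**Figure D1:**
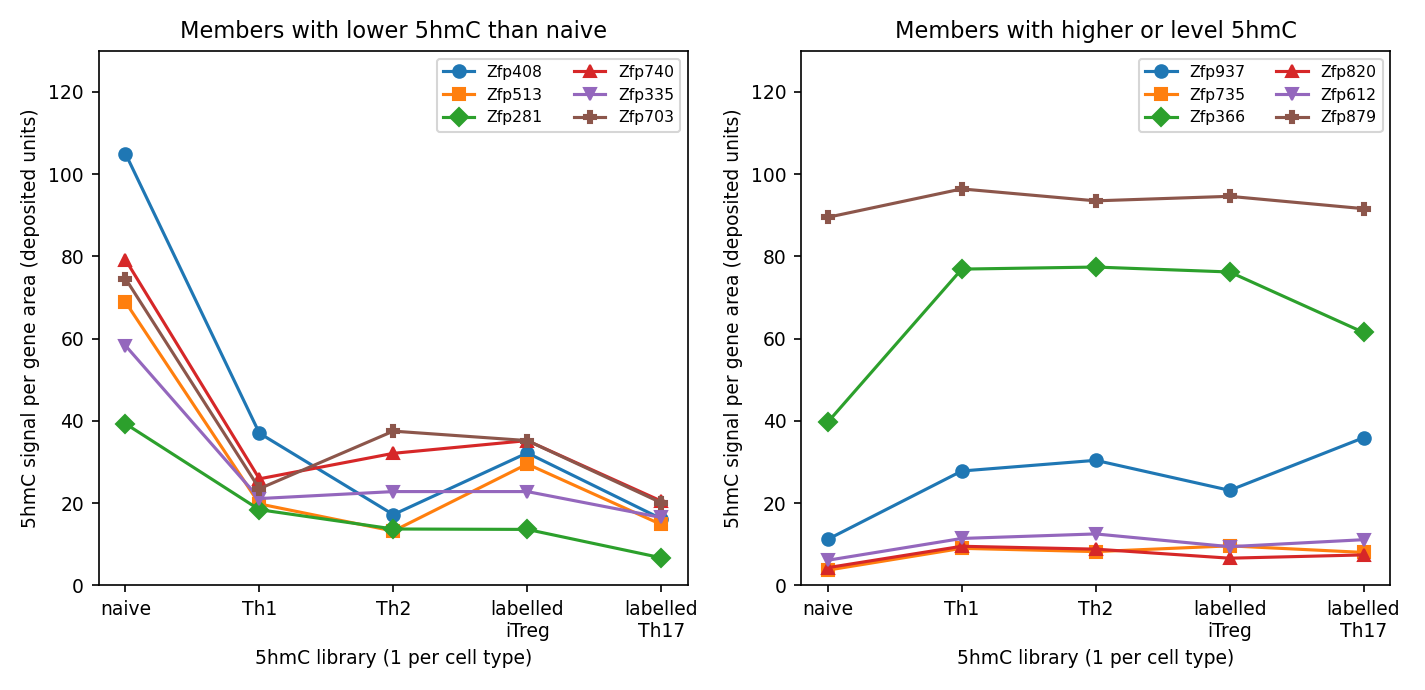
5hmC signal per gene area (y axis, deposited units, linear) in the naive, Th1, Th2, iTreg-labelled and Th17-labelled libraries (x axis, 1 library each, no error bars). Lines join the values of 1 member and imply no order: Zfp408 goes from 105.0 in naive cells to between 16.2 and 37.0 elsewhere, and Zfp879 stays between 89.5 and 96.4.

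The highest levels belonged to 2 members with different behaviour. Zfp879 (chromosome 11, 50645536 to 50655053) had the highest mean 5hmC signal, and it was flat: 89.5 in naive cells and 96.4, 93.5, 94.6 and 91.6 in the others. Its IgG signal of 0.7 and input signal of 1.8 lay near the medians of the members, 1.0 and 1.7. It sits in a chain of 5 Zfp gene areas whose other members were much lower: 14.5 to 28.7 at Zfp354c, 6.2 to 11.7 at Zfp454, 3.8 to 9.6 at Zfp2 and 4.7 to 8.6 at Zfp354b over the 5 libraries. These 4 neighbours were named after their values were seen. Zfp36l1 came second, with 136.6 in naive cells against 83.6, 88.2, 81.6 and 67.5. Zfp366, Zfp449 and Zfp641 followed, and in these 3 every differentiated value lay above naive: Zfp449, on the X chromosome, had 45.0 against 65.4 to 78.9, and Zfp641 had 32.2 against 39.0 to 62.3. Among members that passed the filter and were at least 3000 bp long, the lowest means were at Zfp345 (6.30), Zfp191 (6.46), Zfp773 (6.48), Zfp938 (6.60) and Zfp947 (6.62).

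Members were then grouped by what their proteins are known to do, and each group is set beside all gene areas, of which 59.1% lay below naive, 16.0% at least 2-fold lower and 2.94% at least 2-fold higher among those that passed. Across the 374 members the log2 difference from naive had a Spearman's rho of -0.579 with the naive 5hmC signal, which enters both. The groups also differed in naive signal, and its part in the differences between groups was not tested. The CCCH proteins Zfp36, Zfp36l1 and Zfp36l2 bind AU-rich elements in messenger RNAs, many of cytokines, and speed their decay. All 4 CCCH members lay below naive in the mean of 4, with a median of -0.58 (all gene areas -0.17) or -0.39 after scaling (all gene areas 0), and 0 of the 3 that passed the filter were past 2-fold. Zfp36 had 57.6 in naive cells against 40.3, 39.7, 28.7 and 21.6, while Zfp36l2 had 36.5 against 23.6, 41.6, 36.7 and 23.5, so that 2 of its 4 differentiated values lay above naive. Zfp36l3, a rodent member expressed in placenta, had only 0.7 to 3.7.

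A list of members linked to lymphocytes or signalling lay further below naive than all gene areas. It also holds factors described here by roles elsewhere, such as Zfp281, Zfp217 and Zfp143. All 9 measured lay below naive, with 5 past 2-fold and a median of -1.01, and 9 were below after scaling by median ratios, 3 at least 2-fold, with a median of -0.82. Over all gene areas 59.1% lay below naive and 16.0% were at least 2-fold lower. The 5 list members past 2-fold were Zfp281, Zfp335, Zfp263, Zfp217 and Zfp143. Zfp148 had -0.99, while Zfp91 (-0.36), Zfp608 (-0.31) and Zfp318 lay near the median of all Zfp members, -0.38. Zfp335, needed for T cell maturation (chromosome 2, 164717391 to 164737249), had 58.3 in naive cells against 21.1, 22.8, 22.8 and 16.5. Zfp217, a co-repressor subunit amplified in tumours, had 71.2 against 27.1 to 41.4. Zfp143, which binds promoters and loop anchors, had 31.4 against 14.6, 13.4, 20.8 and 14.0, and Zfp263 had 17.2 against 6.8, 8.6, 9.0 and 5.0. Zfp318, which controls immunoglobulin D expression in B cells, differed least (-0.30). Zfp91, a ubiquitin ligase of NF-kappaB signalling, stood at 11.2 in naive cells and 5.2 in Th1 but 17.2 in Th2. Zfp683 is not analysed here.

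The members that guard imprints and silence retroelements lay nearer to naive. Of 7, 5 lay below naive (4 after scaling), 0 of the 6 that passed were past 2-fold either way, and the median was -0.32 (-0.13 after scaling). The seventh, Zfp932, did not pass and lay above naive (1.11). Zfp57, which protects imprinted methylation, had 12.6 in naive cells against 10.0, 11.3, 9.0 and 10.0, and its partner in that role Zfp445 had 7.2 against 9.3, 10.0, 6.0 and 9.4. Zfp809, which recognises a retroviral primer binding site, lay farthest below naive among them (21.8 against 12.4, 16.1, 13.6 and 13.4, log2 difference -0.65). Developmental members had a median of -0.24 (-0.04 after scaling) and 1 of 7 that passed was past 2-fold. This was Zfp703, of mammary and neural development, with 74.6 against 23.5, 37.5, 35.2 and 20.1 and an IgG signal of 4.9. Zfp423, a regulator of fat and B cell commitment, went the other way, with 7.5 in naive cells against 11.1 to 13.2 (0.72). Members whose proteins act outside classical DNA binding, such as in ribosome assembly, RNA binding or mitosis, had a median of -1.15 (-0.95 after scaling), with 5 of 7 that passed at least 2-fold lower (4 after scaling). They include Zfp207, a spindle protein (27.1 against 13.3, 10.5, 14.2 and 4.8), Zfp622, a ribosome maturation factor (32.3 against 20.2, 19.3, 14.9 and 11.2), and Zfp106, an RNA-binding protein (26.8 against 8.3, 12.2, 10.9 and 12.4).

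The genes of the silencing complex that KRAB zinc finger proteins recruit lay further below naive than the Zfp members. Of 23 measured, 22 lay below naive, 10 were at least 2-fold lower (7 after scaling), 0 were at least 2-fold higher, and the median was -0.92 (-0.72 after scaling), where over all gene areas 59.1% lay below naive, 16.0% were at least 2-fold lower and 2.94% higher. Fam208a is not analysed here. Daxx, a histone H3.3 chaperone, had 102.7 in naive cells against 26.3, 37.9, 34.0 and 19.9, and Chd3, a remodeller of the NuRD complex, had 68.9 against 24.5, 26.3, 30.1 and 17.9. Dnmt3b, a DNA methyltransferase, was the only one above naive (0.76), but its IgG signal of 326.1 lay within the range of its 5hmC signal, 162.5 to 339.7. Morc2a, a silencing ATPase, came next with -0.39. Trim28 itself had 24.3 against 18.4, 17.2, 16.9 and 14.7 (-0.53), and Setdb1 had 15.1 against 11.7, 12.5, 12.0 and 7.5 (-0.49). Among other zinc finger families, 38 Zbtb genes had a median of -0.67 (-0.47 after scaling) and 25 Zscan and Zkscan genes one of -0.27 (-0.08 after scaling). The value of the Zfp members, -0.38 (-0.18 after scaling), lay between them.

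Zfp genes are spread over 20 chromosomes, with 89 on chromosome 7, 45 on chromosome 17 and 36 on chromosome 13. The 201 clustered members form 48 chains, in which each gene area lies within 100 kb of the next, and the longest chains hold 15. Members nearest to the limit were Zfp937 and Zfp120 (81.4 kb) and Zfp263 (96.4 kb) inside, and Zfp295 and Zfp932 (101.9 kb) and Zfp72 (103.5 kb) outside. Their mean 5hmC signals were 25.68, 11.52 and 9.32 inside and 19.58, 5.78 and 6.76 outside. The file places Zfp932 on chromosome 16 with a length of 0.35 kb, while the reference table gives its gene identifier another chromosome, so its position is uncertain.

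Clustered and single members had nearly the same 5hmC level. The median was 15.9 for clustered and 17.7 for single members in naive cells, 12.4 against 12.8 in Th1, 12.8 against 13.1 in Th2, 12.8 against 12.3 in the iTreg-labelled library, and 11.2 and 11.1 in the Th17-labelled one. On the log2 scale the medians of clustered minus single members differed by -0.15 in naive cells and by at most 0.06 either way in the other 4 libraries. Input medians were 1.7 for both, IgG medians 1.0 and 1.1, and 5mC medians 0.6 to 0.8 in clustered and 0.7 to 0.8 in single members. The contrast of clustered minus single between 5hmC and 5mC averaged 0.03 ± 0.11 on the log2 scale (SD, n = 5 cell types) and was above 0 in 2 of 5 cell types. The exact two-sided sign-flip permutation test over the 5 cell types gave p = 0.875, where 0.0625 is the smallest p that 5 pairs allow. The 5mC medians of the classes were equal in Th1, Th2 and Th17 cells. They differed by a rounding step of 0.1 in naive (0.7 and 0.8) and iTreg cells (0.6 and 0.7). Rounding thus enters the contrast, and no conclusion is drawn from the test. With 5hmC averaged over the 5 libraries, the difference of medians was 0.011, and -0.21 when neighbours within 200 kb counted as clustered. The classes differed more in spread: naive quartiles ran from 10.3 to 22.1 in clustered members and from 9.0 to 29.6 in single ones, and the 95th percentiles were 38.9 and 64.48.

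**Figure D2:**
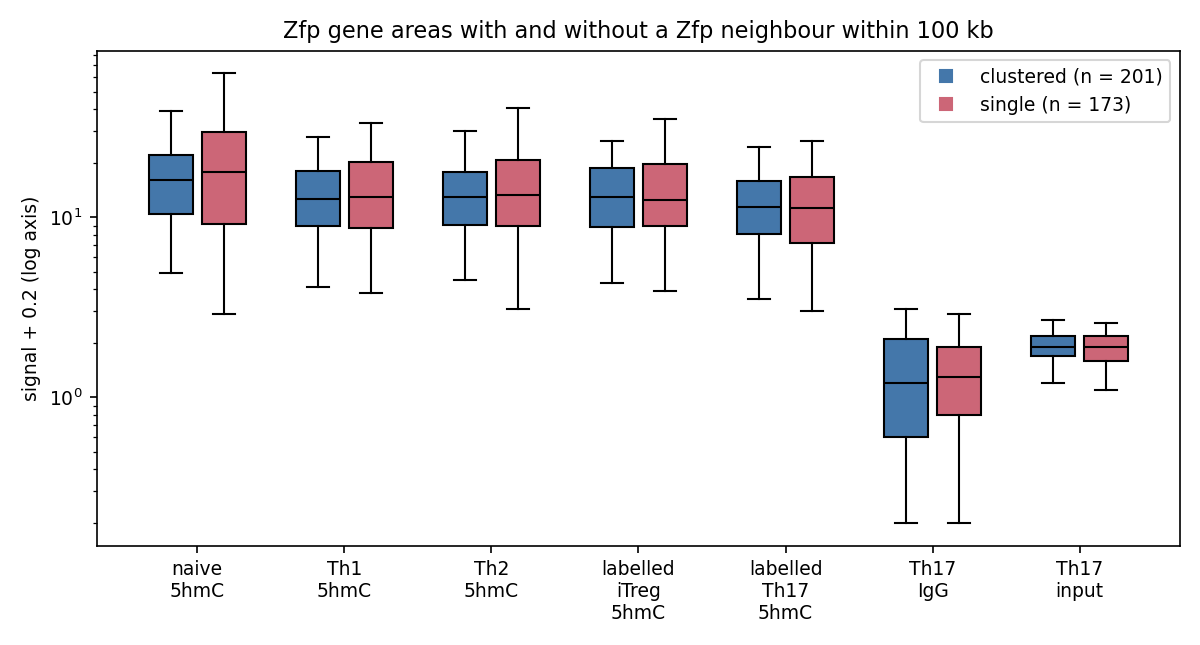
Signal + 0.2 on a log axis for clustered (201) and single (173) Zfp gene areas in the 5hmC libraries and the Th17 IgG and input libraries (1 library each). Boxes span the quartiles with the median as a line, and whiskers the 5th to 95th percentiles. Medians nearly coincide (15.9 and 17.7 in naive cells), and the single members reach higher in naive cells.

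Large drops were found more often at single members. Relative to naive, 17 of 186 clustered members that passed (9.14%) and 29 of 154 single ones (18.8%) were at least 2-fold lower in the mean of 4, where the background was 16.0%. By library these shares were 11.8% against 18.2% in Th1, 8.06% against 16.2% in Th2, 10.2% against 17.5% in the iTreg-labelled library, and 17.7% and 36.4% in the Th17-labelled one. The order was the same in all 4 libraries, which share the naive library, and members are not replicates, so this difference has no test. Scaling by median ratios left 11 clustered and 17 single members at least 2-fold lower, or 5.91% and 11.0%, where the background became 10.1%. Medians differed little: -0.34 for clustered and -0.41 for single members (-0.14 and -0.21 after scaling), and 78.1% and 76.3% of members lay below naive. Single members also had longer gene areas (median 19.22 kb against 13.56 kb) and more CG in the promoter (median 17 against 12.5, over 135 and 168 members with a sequence). The part of length, promoter CG and naive level in the difference was not tested.

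**Figure D3:**
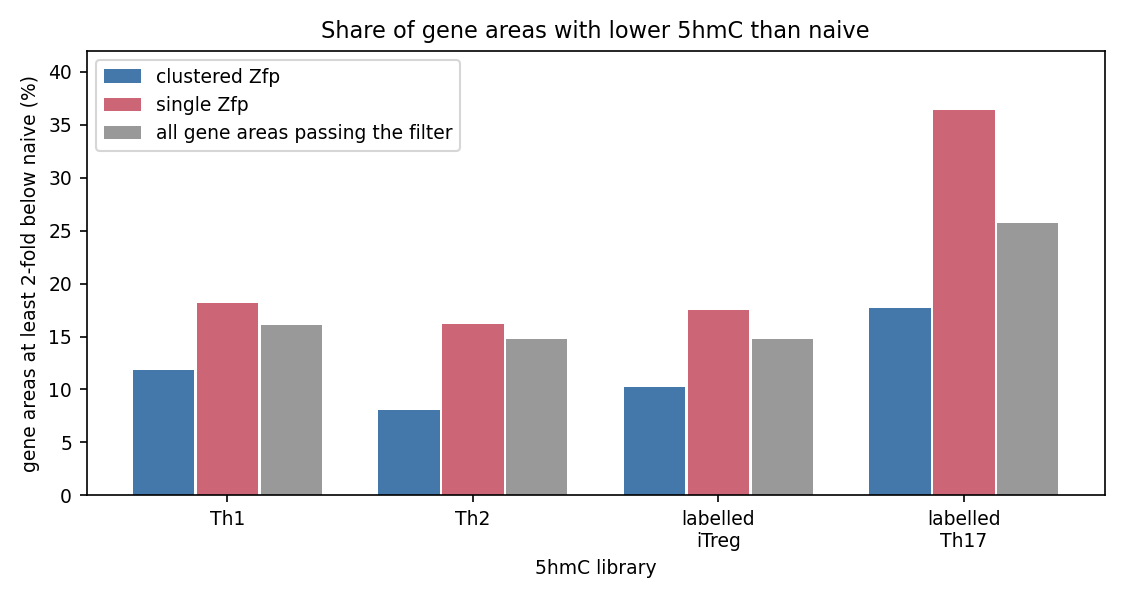
Share of gene areas with 5hmC signal at least 2-fold below naive (y axis, %, from 0) in each differentiated library, for clustered Zfp, single Zfp and all gene areas that passed the filter on low values (1 library each, no error bars). Clustered members stand below single ones in all 4 libraries, from 8.06% and 16.2% in Th2 to 17.7% and 36.4% in the Th17-labelled library.

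Promoter CG and 5hmC went together weakly among members. Members with 0 to 9 CG had a naive median of 13.55, those with 10 to 19 CG 16.9, and those with 20 or more 18.9, where all gene areas had 10.2, 19.1 and 21.1. At least 2-fold lower in the mean of 4 were 8 of 80 members that passed in the lowest class, 13 of 108 in the middle and 15 of 91 in the highest. Over all gene areas it was 605 of 5613, 631 of 3604 and 1360 of 6374. Spearman's rho with promoter CG over 303 members was 0.26 for mean 5hmC and -0.165 for the difference from naive. Both are descriptions across gene areas of the same libraries. The class of 20 or more held 30.7% of the members with a sequence, 36.2% of all gene areas matched in the same way and 40.7% of those of at least 3000 bp.

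The 10 chains of 6 or more members, which hold 87 members, differed from one another. The chain from Zfp628 to Zfp580 on chromosome 7 (4866818 to 5005324, 6 members) had a median 5hmC signal of 39.15 in naive cells, against 20.65, 16.65, 21.3 and 15.5 in the Th1, Th2, iTreg-labelled and Th17-labelled libraries, and all 6 members lay below naive (median log2 difference -1.11). Its highest member, Zfp865, had 54.3 against 20.9, 20.3, 22.6 and 15.6. The chain from Zfp553 to Zfp689, also on chromosome 7 (134376956 to 134592671, 7 members), had 23.6 against 14.0, 13.0, 11.4 and 11.0 (-0.85), with 7 of 7 below naive. These 2 chains had the shortest gene areas, with medians of 3.63 and 3.51 kb against 9.44 to 19.95 kb in the other 8, and the part of length was not tested.

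Another chain on chromosome 7, from Zfp787 to Zfp28 (6083090 to 6349346, 6 members), was level, with 21.75 in naive cells against 19.75 to 21.15 elsewhere. It holds Zfp444, with 38.9 in naive cells, 53.1 in Th2 and 52.0 in the iTreg-labelled library. The 15 members from Zfp84 to Zfp146 (chromosome 7, 30553570 to 30954745) had 23.2 against 14.6, 17.6, 18.5 and 14.8, and 15 of 15 lay below naive (14 after scaling). Zfp260 led them with 68.7 in naive cells against 21.5 to 30.8. The 15 members from Zfp712 to Zfp748 on chromosome 13 (67139529 to 67654087) were the lowest chain, with 9.7 against 8.5, 8.5, 8.4 and 8.3. In the chain from Zfp871 to Zfp563 on chromosome 17 the median was 18.3 in naive cells, 10.05 and 10.85 in Th1 and Th2, and 15.55 and 13.2 in the iTreg-labelled and Th17-labelled libraries. Median differences of all 10 chains lay below 0 as deposited, from -1.11 to -0.11, but after scaling by median ratios 4 of them lay just above 0: those from Zfp677 to Zfp948 (0.04), Zfp787 to Zfp28 (0.09), Zfp180 to Zfp94 (0.01) and Zfp60 to Zfp850 (0.05).

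**Figure D4:**
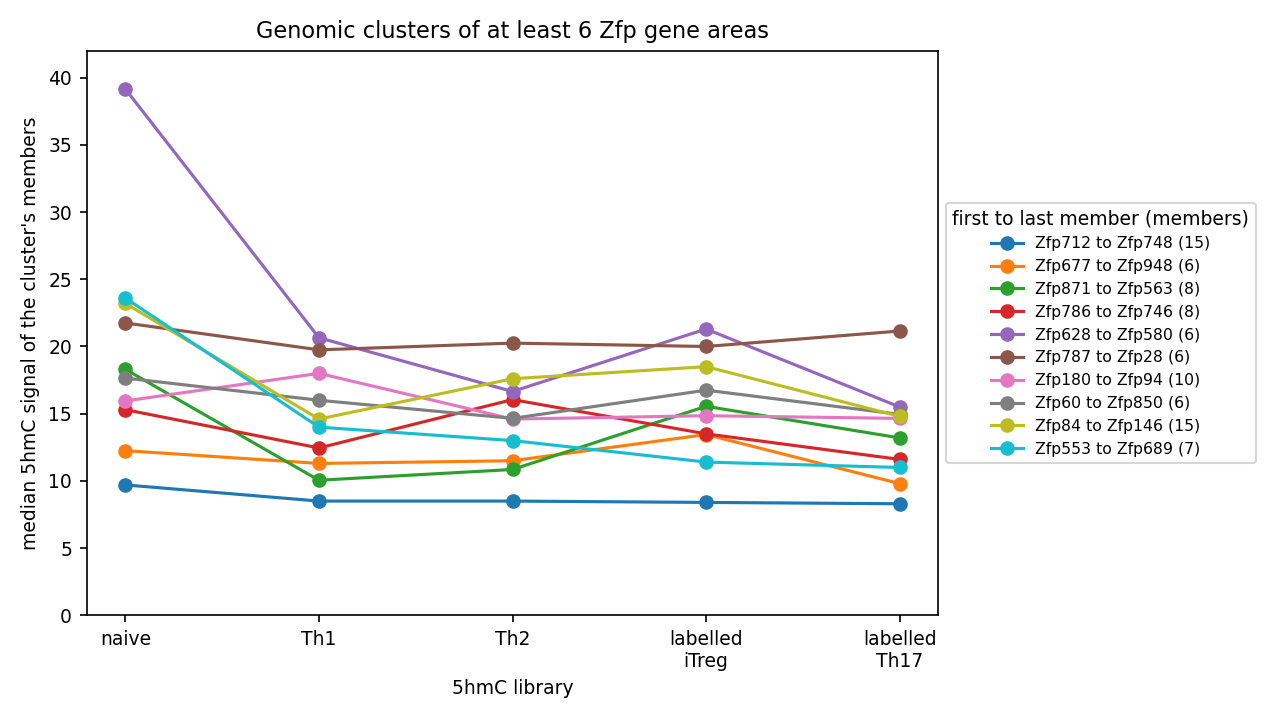
Median 5hmC signal of the members of each of the 10 chains with at least 6 Zfp gene areas (y axis, deposited units, linear) in each 5hmC library (x axis, 1 library each, no error bars). Lines imply no order. The chain from Zfp628 to Zfp580 goes from 39.15 in naive cells to 15.5 to 21.3, and the chain from Zfp712 to Zfp748 stays between 8.3 and 9.7.

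Neighbours resembled each other more than distant members did. The median absolute log2 difference in mean 5hmC was 0.46 for 153 pairs of adjacent members within 100 kb and 0.64 for 6776 pairs on the same chromosome over 100 kb apart. The same held for 5mC (0.35 and 0.57), for the difference from naive (0.40 and 0.52) and for input DNA (0.16 and 0.29). Pairs share members and libraries, so these are descriptions without a test, and input, which saw no antibody, moved with them.

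The 5mC antibody gave little signal at these genes, and differences between cell types were small. Median 5mC of the members was 0.8 in naive cells and Th1 and 0.7 in Th2, iTreg and Th17 cells, against 0.6 to 0.7 over all gene areas, which is below the input median of 1.7. Few members passed 2-fold against naive: in Th1 1 higher and 0 lower (backgrounds 2.68% and 2.67%), in Th2 0 and 2 (1.84% and 3.81%), in iTreg 0 and 2 (1.60% and 5.54%), and in Th17 0 and 2 (1.81% and 4.72%). Naive 5mC was the highest of the 5 values in 73 of 340 members (21.5%, background 23.1%) and the lowest in 20 (5.88%, background 7.27%). The highest mean 5mC signals were at Zfp46 (2.74), Zfp579 (2.48), Zfp784 (2.40) and Zfp513 (2.30), and Zfp579 and Zfp784 belong to the chain from Zfp628 to Zfp580. Zfp579 had the largest drop, from 3.7 in naive cells to 2.8, 2.6, 1.7 and 1.6 (log2 difference -0.75). Zfp36l1 had the largest gain, from 0.5 to 1.3 in Th1, 1.0 in Th2, 0.9 in iTreg and 0.5 in Th17 cells (0.63). At levels this low, a rounding step of 0.1 is a sizeable part of a value.

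Whether a member favoured 5hmC or 5mC was tested with limma over the 5 cell types, after centring every library on the median of its gene areas. Zfp36l1, Zfp36 and Zfp36l2 of the RNA-binding Zfp36 family led the members in 5hmC relative to 5mC, not in 5hmC level. Zfp36l3 did not pass the filter and was not tested. Zfp36l1, with 5mC signals of 0.5 to 1.3 beside the 5hmC signals above, had a centred log2 difference of 2.63 (SE 0.24, limma adjusted p = 0.00022). Zfp36 had 2.41 (SE 0.24, limma adjusted p = 0.00028), with 5mC signals of 0.1 to 0.4, and Zfp36l2 had 2.34 (SE 0.17, limma adjusted p = 0.00012), with 0.1 to 0.3. IgG was listed at 0.0 for all 3. In all, 15 of 340 members were called with 5hmC over 5mC (4.41%, background 10.1%) and 16 with 5mC over 5hmC (4.71%, background 7.63%). The others with 5hmC over 5mC include Zfp449 (2.21), Zfp879 (1.93), Zfp62 (1.91) and Zfp366 (1.86). Zfp839, also called (1.90), is present on 2 rows of the file, and the one used here is 0.80 kb long.

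Members with 5mC over 5hmC were led by Zfp518b, with 5hmC signals of 4.5 to 9.7 and 5mC signals of 1.2 to 1.7 (centred log2 difference -1.81, SE 0.23, limma adjusted p = 0.00070). Zfp707 (-1.32), Zfp764 (-1.31), Zfp319 (-1.27), Zfp637 (-1.20) and Zfp161 (-1.17), now Zbtb14, followed. Zfp42, known as Rex1 and a marker of pluripotent cells, was also called (-1.15, SE 0.17, limma adjusted p = 0.0014), with 5hmC of 7.6 to 11.8 and 5mC of 1.1 to 1.6. With a pseudocount of 1 in place of 0.2, only 4 of the 16 were called: Zfp518b, Zfp764, Zfp161 and Zfp773 (5.37% over all gene areas). The 5hmC calls numbered 14 (8.47% over all gene areas), among them 12 of the 15 and all 3 named above from the Zfp36 family. Without the filter on low values, 21 members were called with 5mC over 5hmC (16.1% over all gene areas). Among them were 9 of the 16, but not Zfp773. Clustered members made up 5 of the 15 calls for 5hmC, or 2.69% of 186, against 6.49% of 154 single members (background 10.1%). They made up 9 of the 16 calls for 5mC, or 4.84% against 4.55% of single members (background 7.63%).

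The members of lowest 5hmC also had little input signal. Across the 374 members mean 5hmC had a Spearman's rho of 0.634 with input, 0.665 with mean 5mC and 0.203 with IgG, all descriptions across gene areas whose base composition and mappable length were not measured. The 11 members with an input signal under 0.5 had mean 5hmC of 0.08 to 3.02, where the 352 with at least 1 had a median of 13.76. These 11 are Zfp433, Zfp781, Zfp934, Zfp640, Zfp960, Zfp97, Zfp955a, Zfp955b, Zfp600, Zfp534 and Zfp419, named after their values were seen, and 5 of them are clustered. Near-identical copies are common in this family, and how reads that fit several places were treated is not given in the sources used here, so low signal at such genes cannot be told apart from reads left out. Among members, the highest IgG signals were 9.9 at Zfp821, where 5hmC was 10.8 to 16.3, 5.1 at Zfp513, 4.9 at Zfp703 and 4.1 at Zfp790.

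**Figure D5:**
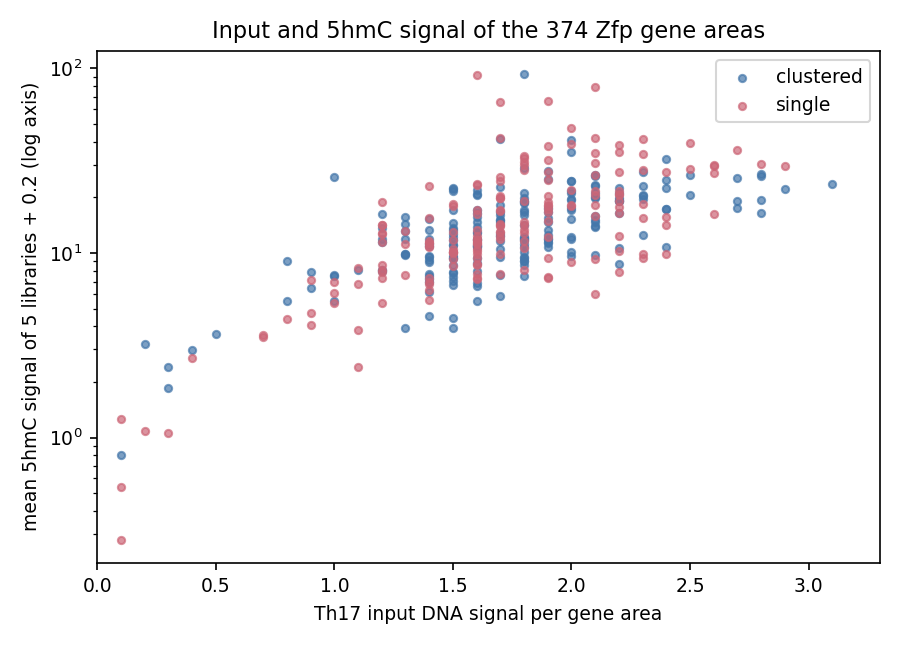
Mean 5hmC signal of the 5 libraries + 0.2 (y axis, log) against Th17 input DNA signal (x axis, linear, rounded to 0.1) for the 374 Zfp gene areas, coloured by class. Members with input under 0.5 lie at the bottom (mean 5hmC of 0.08 to 3.02), and Zfp937, with an input of 1.0 and a mean 5hmC of 25.68, stands above others of like input.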

How the data were processed

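Mouse T cell DNA was immunoprecipitated with antibodies against 5mC or 5hmC, or control IgG, and sequenced beside input DNA (12 libraries, 1 per group). The authors deposited signal values per gene area, rounded to 0.1. CASAVA 1.7.0 and genome build mm9 were used, per the submitters' processing notes. What is not given in the sources used here are aligner settings, read counting, duplicate removal and how libraries were scaled, so depth is unknown and no interval could be given. Whether coordinates count from 0 or 1 is not stated. Columns were matched by the sample number in the titles, and 0 columns were left unused.

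Of 37752 rows, 208 that repeated a symbol were left out (the row with the highest mean over 10 libraries was kept). The pseudocount was 0.2, the 5th percentile of non-zero values, and the filter of 3.31 the 25th percentile of the means over the 10 libraries. Comparisons with naive used a rule of size, with ratios of exactly 2 counted. The test of 5hmC against 5mC was limma 3.58.1 in R 4.3.3 (trend, cell type as a block) on all 28159 gene areas, and a member was called at a log2 difference of 1 or more with p below 0.05 after Benjamini-Hochberg adjustment. On simulated libraries of these 28159 gene areas 67 of 100 planted log2 differences of 1.5 were recovered, 96 of 100 of 3 were, and 13 of 27959 unchanged gene areas were called. Other steps used Python 3.11.15, numpy 2.4.6, pandas 2.3.3, scipy 1.17.1 and matplotlib 3.10.9. Of the members' gene identifiers, 369 were in the RefSeq table of GRCm38.p6, 17 under another current symbol.

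The members and gene lists were chosen with earlier results of these data known. Named are the role lists, the members at the ends of each ranking among those that passed the filter and were at least 3000 bp long (mean 5hmC, each difference from naive, mean 5mC, the limma difference, IgG), the ends of each chain of 6 or more, and 3 members on each side of the 100 kb limit. Alternatives were a pseudocount of 1, median-ratio scaling, no filter, gene areas of at least 3000 bp, limits of 50 and 200 kb, the first of repeated rows, no cell type block, ratios to IgG or input, each cell type left out, leaving out the libraries labelled iTreg and Th17, and, chosen after seeing the data, members with an input of at least 1.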

Additional observations from a re-analysis of the deposited data

How the results depend on the processing

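Under median-ratio scaling of the libraries, members at least 2-fold above naive in 5hmC numbered 15 in Th1, 13 in Th2 and 11 in the library labelled Th17. The shares of all gene areas were 6.48%, 6.86% and 9.39%, against 4.41%, 3.82% and 3.24% of members. Those at least 2-fold below numbered 28 in Th1, 27 in the library labelled iTreg and 50 in that labelled Th17. Here it was 8.24%, 7.94% and 14.7% of members, against 10.7%, 10.2% and 16.9% of all gene areas. The share at least 2-fold lower in the mean of 4 became 8.24% of members, 5.91% of clustered and 11.0% of single ones (10.1% of all gene areas), and 5 members were at least 2-fold higher (all gene areas 5.28%). The median difference from naive became -0.18 in 5hmC, and in 5mC it turned to 0.038. The 5mC counts became 0 lower in Th2, iTreg and Th17 and 1 higher in iTreg. With a pseudocount of 1, members higher than naive in 5hmC numbered 3, 2, 1 and 1 in Th1, Th2 and the libraries labelled iTreg and Th17. These were 0.882%, 0.588%, 0.294% and 0.294% of members, against 3.55%, 4.01%, 3.71% and 3.92% of all gene areas. The 5mC counts became 0, and limma called 4 members with 5mC over 5hmC (all gene areas 5.37%). Without the filter, 7 members (1.87%) were higher in each of the libraries labelled iTreg and Th17, against 7.45% and 7.37% of all gene areas. The 5mC counts became 2 higher in Th1 and 1 higher and 4 lower in Th2. For 5hmC over 5mC, limma called 25 members (all gene areas 9.61%). For 5mC over 5hmC it called 21 (all gene areas 16.1%), which included only 9 of the 16 reported above. With gene areas of at least 3000 bp, 1 member was lower in 5mC in Th2. Clustering within 50 kb turned the IgG difference between clustered and single members to 0.12, and within 200 kb their mean 5hmC difference turned to -0.21 and their difference in change from naive became 0.14. The cause was not tested in these cases. Other alternatives, among them leaving out the libraries labelled iTreg and Th17, leaving out each cell type in turn, no cell type block, the first of repeated rows and members with an input of at least 1, kept counts within 1.5 times and kept the direction, except that the mean 5hmC difference between clustered and single members, 0.011 as reported, was -0.041 as a ratio to input and with an input of at least 1.

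The 5hmC and 5mC libraries were paired by cell type, and without that block limma called 15 and 16 members, as with it. No pairing by replicate number was possible because each group holds 1 library. The limits are the lack of replicates, the single naive library behind each difference, the unknown read depth and scaling, and 5mC values that lie only a few rounding steps above 0.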
